A study of Mus musculus with 6 samples.

Results

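Fibrillar collagens, type VI collagen and the enzyme lysyl oxidase were followed in whole mouse uterus over the first day after a single dose of progesterone. The 9 genes were Col1a1, Col1a2, Col3a1, Col5a1, Col5a2, Col6a1, Col6a2, Col6a3 and Lox. A probe set was taken when the platform annotation gave 1 of these symbols as its only gene, which found 16 of 12422 probe sets (controls excluded), 14 for the 8 collagen genes and 2 for Lox. All 16 passed the filter on low values, and 14 of the 16 lay above the floor on every array that gave a value. Each of 6 Affymetrix arrays stood for 1 time: mice with no injection at 0 h, and mice 6, 12, 15, 18 and 24 h after 0.2 mg of progesterone, dissolved in 0.1 mL of sesame oil and given under the skin. Mice of every group, the uninjected one included, were 129/SvImJ wildtype females of 10 to 16 weeks whose ovaries had been removed 14 days earlier. RNA of 8 uterine horns from 4 mice was pooled for each array, so no value has a replicate, differences between animals cannot be seen, and 1 array at 0 h enters every difference from 0 h. Mice given oil alone were not analysed here, and the labels do not say at what hour of the day tissue was taken.

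Values are log2 expression per probe set as deposited, and a floor of 6.60, the 40th percentile of all values, was set for differences and tests. Array medians were 7.12 to 7.22, with 7361 to 7557 probe sets of each array higher than the floor. The label of whole uterus was checked against markers of its layers: all 10 epithelium markers on the array and 8 of 9 smooth muscle markers were above the floor on all 6 arrays. The remaining marker, Actg2, was above the floor at 0, 6 and 12 h and had no value on the other arrays. Because RNA came from whole tissue, fewer cells of a type and less RNA per cell cannot be told apart.

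Fibrillar collagens are long triple helices of 3 chains that pack side by side into the fibrils that give tissue its tensile strength. Col1a1 and Col1a2 encode the chains of type I collagen, Col3a1 the chain of type III, and Col5a1 and Col5a2 chains of type V, which sits inside type I fibrils and limits their width. Col6a1, Col6a2 and Col6a3 encode the chains of type VI collagen, which forms beaded microfilaments around cells. Lox encodes a copper-dependent oxidase that converts lysines of collagen and elastin to aldehydes, from which the cross-links between molecules form. In the uterus these proteins are made mainly by fibroblasts of the stroma and by smooth muscle cells, and their amount changes with the estrous cycle and with pregnancy.

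The collagens and Lox went opposite ways after progesterone. Members were chosen with earlier results of these data known, which limits what their counts beside all probe sets can show. In a linear fit over hours, 7 collagen probe sets of 5 genes rose, those of Col1a1 (both), Col3a1 (2 of 3), Col5a2, Col6a2 and Col6a3, with slopes between 1.22 and 2.32 on the log2 scale per 24 h, where 0.194% of 7731 probe sets rose. That count of 7 was lost, with 0 left, when the 6, 12, 15 or 18 h array was left out, and with no filter on expression. At an unadjusted p under 0.05 (limma), 14 of the 16 remained with 1 of these arrays left out, and 15 with no filter. Calls were nearly absent over all probe sets too, where the main fit called 24 of 7731. They were 1 of 7729 without 6 h, 0 without 12 or 15 h, and 0 of 12422 with no filter. Both Lox probe sets fell in the comparison of the 5 progesterone arrays with 0 h, by 1.22 ± 0.22 (SE) and 1.41 ± 0.22. At 24 h the highest fold over 0 h was 4.40 for Col3a1, and the 2 Lox probe sets were at 0.450 and 0.385 of their 0 h level. Not all collagens followed: probe set 161156_r_at of Col1a2 and 93472_at of Col5a1 stayed within -0.18 and 0.23 of 0 h at every time.

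**Figure D1:**
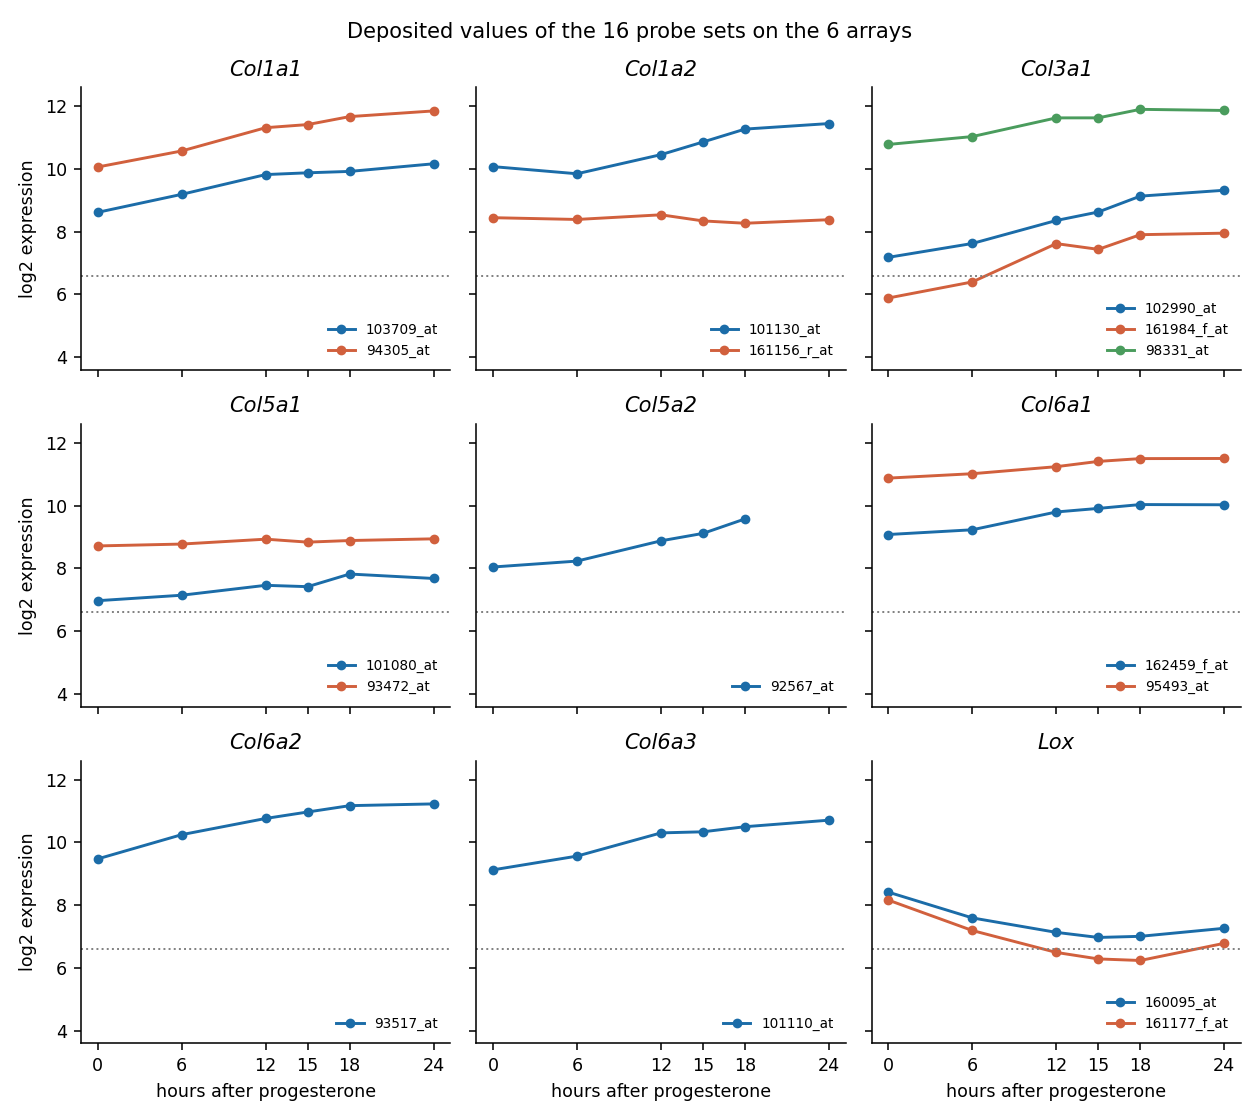
Deposited log2 expression of each of the 16 probe sets (y axis) against hours after progesterone (x axis), 1 panel per gene and 1 line per probe set, each point being 1 array. The dotted line is the floor of 6.60. The Lox lines go down to their lowest points at 15 and 18 h, while the collagen lines go up, apart from the nearly level lines of Col1a2 161156_r_at and Col5a1 93472_at.

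Upstream sequence is shown for 4 collagen genes of which at least 1 probe set was higher at 24 h than at 0 h, by different amounts, since a shared sequence element is a common question for such genes. The 250 bases before the annotated start of each come from the RefSeq promoter table (GRCm38.p6). Windows were used for 6 of the 9 genes, Col1a2, Col3a1, Col5a1, Col6a1, Col6a2 and Col6a3. Col1a1, Col5a2 and Lox had none in the search, which left out 1 chromosome, so nothing is known here of their motifs. For Col5a1 and Col6a3 the start used was not the outer edge of the annotated gene. Col3a1 (chr1:45311288-45311537, plus strand) had the steepest slope, Col1a2 (chr6:4505368-4505617, plus strand) was still below 0 h at 6 h, and Col6a2 (chr10:76623631-76623880, minus strand) and Col6a1 (chr10:76726045-76726294, minus strand) are partners in type VI collagen. Sequences run 5' to 3' on the gene's strand, and capitals mark matches to the 6 motifs searched.
Col3a1: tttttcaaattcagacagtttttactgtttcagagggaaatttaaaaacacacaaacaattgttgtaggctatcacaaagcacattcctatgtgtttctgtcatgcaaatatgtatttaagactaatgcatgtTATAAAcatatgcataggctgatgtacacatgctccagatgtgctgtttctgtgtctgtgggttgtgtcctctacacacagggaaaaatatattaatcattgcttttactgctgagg
Col1a2: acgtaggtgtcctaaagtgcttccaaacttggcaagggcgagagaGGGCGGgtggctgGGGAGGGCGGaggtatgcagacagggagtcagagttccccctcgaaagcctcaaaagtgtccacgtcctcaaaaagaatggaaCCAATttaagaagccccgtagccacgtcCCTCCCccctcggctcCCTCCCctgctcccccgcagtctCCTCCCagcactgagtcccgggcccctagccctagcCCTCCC
Col6a2: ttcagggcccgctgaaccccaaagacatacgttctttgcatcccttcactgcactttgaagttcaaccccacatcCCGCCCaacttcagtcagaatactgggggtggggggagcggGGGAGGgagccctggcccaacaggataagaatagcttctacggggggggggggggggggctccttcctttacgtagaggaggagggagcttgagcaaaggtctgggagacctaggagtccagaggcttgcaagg
Col6a1: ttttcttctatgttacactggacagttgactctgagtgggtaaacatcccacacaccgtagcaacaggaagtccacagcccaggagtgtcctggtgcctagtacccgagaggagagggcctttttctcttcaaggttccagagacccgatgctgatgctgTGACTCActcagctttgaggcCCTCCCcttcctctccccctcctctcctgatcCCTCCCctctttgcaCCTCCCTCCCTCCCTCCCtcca

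The motifs, each searched on both strands, were a core promoter element (TATAAA), the binding sequence of the factor NF-Y (CCAAT), that of the Sp family of zinc finger factors (GGGCGG), a related purine run (GGGAGG), the half-site of progesterone and glucocorticoid receptors (AGAACA), and the site of AP-1 factors (TGACTCA). The motifs GGGCGG and GGGAGG can overlap, as they do in Col1a2. Among 32851 promoter windows of the same 250 bases, 12.4% held TATAAA, 33.8% CCAAT, 32.7% GGGCGG, 38.0% GGGAGG, 16.1% AGAACA and 4.46% TGACTCA. The motif TATAAA was found in Col3a1 only, starting 117 bases before the annotated start, CCAAT in Col1a2 only, and TGACTCA in Col6a1 only. The motif GGGCGG was present in 3 of the 6 genes, Col1a2, Col5a1 and Col6a2, and GGGAGG in 5 of the 6, all but Col3a1. AGAACA matched none of the 6 windows. A match is a run of letters, not a site in use. On the chromosome, Col3a1 and Col5a2 are direct neighbours with 0 annotated genes between them, and Col6a1 and Col6a2 have 2 noncoding and 0 protein-coding genes between them.

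Type III collagen had the largest difference from 0 h of all members at 18 and 24 h. Col3a1 probe set 102990_at read 7.18 at 0 h and 7.62, 8.36, 8.63, 9.13 and 9.32 at 6, 12, 15, 18 and 24 h. Each array was higher than the one before it, and the slope was 2.32 ± 0.20 per 24 h (limma, adjusted p = 0.018), the 6th highest of 7731 probe sets. Col3a1 98331_at read 10.78, 11.03, 11.63, 11.63, 11.90 and 11.86, with all 5 progesterone arrays above 0 h and a level stretch from 18 to 24 h. Its slope was 1.22 ± 0.18 (adjusted p = 0.048). Col3a1 161984_f_at, whose suffix marks probes that can match a family of sequences, read 5.89 and 6.40, both below the floor, and then 7.62, 7.44, 7.90 and 7.95. Its 24 h difference was therefore at least 1.35 and its slope of 1.59 ± 0.26 did not pass (adjusted p = 0.066); with the deposited values and no floor the slope was 2.25 (adjusted p = 0.029), and a floor at the 60th percentile gave 0.26. The 3 probe sets followed each other over the 6 arrays, with Pearson r from 0.97 upwards as a description of arrays that all 3 share.

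The chains of type I collagen differed in their timing. Col1a1 94305_at read 10.06 at 0 h and 10.57, 11.31, 11.41, 11.67 and 11.85 at the later times, and Col1a1 103709_at read 8.62, 9.19, 9.82, 9.88, 9.92 and 10.16. Both probe sets increased on every array over the one before. Their slopes were 1.88 ± 0.18 (adjusted p = 0.019) and 1.55 ± 0.21 (adjusted p = 0.046), and at 24 h they were 3.45 and 2.92 times their 0 h level. Col1a2 101130_at, for the partner chain, read 10.07, 9.85, 10.45, 10.86, 11.27 and 11.44. It was lower than 0 h at 6 h, by -0.23, where the 2 probe sets of Col1a1 stood at 0.51 and 0.57, and at 12 h it was at 0.38 where they were at 1.25 and 1.20. These differences between chains rest on single arrays and were not tested. Over all 6 arrays the slope of Col1a2 101130_at was 1.67 ± 0.27 and did not pass (adjusted p = 0.063), while over the 5 progesterone arrays alone it was 2.24 ± 0.25 (adjusted p = 0.016). The other Col1a2 probe set, 161156_r_at, whose suffix marks a design with relaxed rules for choosing probes, went from 8.45 at 0 h to 8.39, 8.54, 8.34, 8.27 and 8.38. It had a slope of -0.11 ± 0.16 (adjusted p = 0.80) and a Pearson r of -0.52 with 101130_at over the 6 arrays, so the annotation gives 1 gene to 2 probe sets that disagree.

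Probe sets of type V collagen differed in slope, within Col5a1 as well as between the genes, and these differences were not tested. Col5a2 92567_at read 8.05, 8.23, 8.88, 9.12 and 9.58 from 0 to 18 h and had no value at 24 h, so its fit used 5 arrays. Every array was above the one before, the 18 h level was 2.89 times that at 0 h, and the slope was 2.04 ± 0.26 (adjusted p = 0.046, 3 residual degrees of freedom). Col5a1 101080_at read 6.97, 7.15, 7.46, 7.42, 7.82 and 7.68, all 5 progesterone arrays being above 0 h, with a slope of 0.82 ± 0.18 that did not pass (adjusted p = 0.095). Col5a1 93472_at covered a range of 0.23 in all, from 8.72 at 0 h to 8.94 at 24 h, with a slope of 0.22 ± 0.14 (adjusted p = 0.50). Over the 5 arrays with a value for Col5a2, its Pearson r was 0.97 with Col5a1 101080_at and 0.79 with 93472_at.

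All 4 type VI probe sets were above 0 h at every time. Col6a2 93517_at read 9.47 at 0 h and 10.25, 10.76, 10.97, 11.17 and 11.23 afterwards. It had the highest difference of all members at 6 h, 0.77, which was 44.1% of its 24 h difference of 1.75, and a slope of 1.80 ± 0.23 (adjusted p = 0.046). Col6a3 101110_at read 9.12, 9.56, 10.30, 10.34, 10.50 and 10.71, also with every array above the one before, and had a slope of 1.66 ± 0.19 (adjusted p = 0.032). Col6a1 moved less on both of its probe sets: 162459_f_at went from 9.08 to 10.03 at 18 and 24 h, and 95493_at from 10.88 to 11.50. Their slopes of 1.10 ± 0.19 and 0.71 ± 0.13 did not pass (adjusted p = 0.068 and 0.081). The 3 chains of type VI collagen thus had 24 h differences of 0.63 and 0.95 for Col6a1, 1.75 for Col6a2 and 1.58 for Col6a3, a spread between chains that was not tested.

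Lox, the only enzyme among the 9, went the other way. Lox 160095_at read 8.42 at 0 h and 7.59, 7.13, 6.97, 7.01 and 7.26 at 6, 12, 15, 18 and 24 h. All 5 progesterone arrays were below 0 h, the lowest was 15 h, and 24 h was 0.26 above 18 h. Lox 161177_f_at read 8.16 and then 7.19, 6.49, 6.29, 6.24 and 6.79, with 12, 15 and 18 h below the floor, so that its differences there are at least 1.56 in size. The mean of the progesterone arrays minus 0 h was -1.22 ± 0.22 for 160095_at (limma, adjusted p = 0.035) and -1.41 ± 0.22 for 161177_f_at (adjusted p = 0.024). In that comparison 1.8% of 7724 probe sets fell and 0.893% rose, and 0 collagen probe sets passed (limma; 9 of the 14 were upward at an unadjusted p under 0.05, beside 8.09% of all probe sets). Equal floored values narrow the spread for 161177_f_at, and the calls moved with the settings: both passed with no floor (adjusted p = 0.029 and 0.044), 161177_f_at did not with a floor at the 20th percentile (0.058), and neither did with no filter on expression (0.15 and 0.10). Without the 12, 15, 18 or 24 h array neither Lox probe set passed (adjusted p up to 0.12 and 0.097), and without 6 h both did (0.011 and 0.0042). The linear fit over hours gave Lox slopes of -1.22 ± 0.35 and -1.39 ± 0.38 that did not pass (adjusted p = 0.16 and 0.15), and with 0 h left out these were -0.45 and -0.49, since most of the decrease lay between 0 and 12 h.

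**Figure D2:**
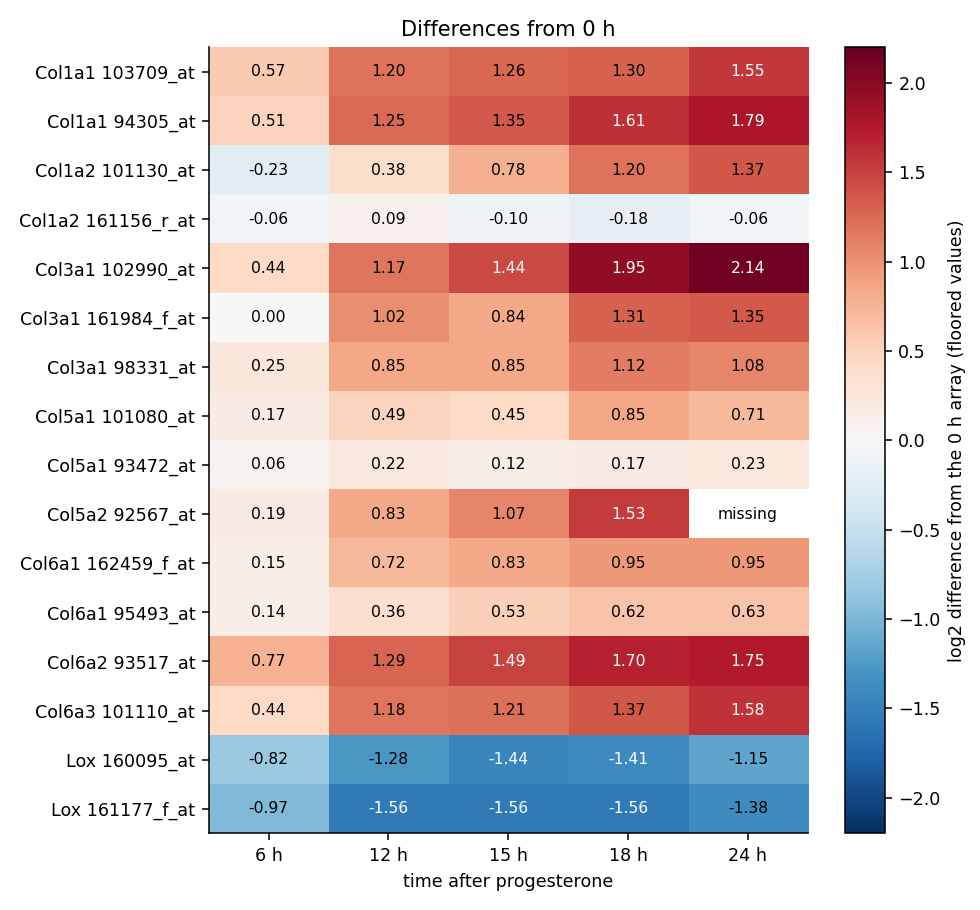
Log2 difference from the 0 h array (colour and printed value; red higher, blue lower) for each of the 16 probe sets (rows) at each time (columns), with values below the floor of 6.60 set to it. The collagen rows deepen in red towards 18 and 24 h, up to 2.14 for Col3a1 102990_at, and both Lox rows are blue at all 5 times; Col5a2 has no value at 24 h.

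Counted at 2-fold, collagens entered late. At 6 h 0 of 14 collagen probe sets were at least 2-fold above 0 h, where 1.41% of all analysed probe sets were. The count was 6 of 14 at 12 h (background 1.83%) and 6 of 14 at 15 h (2.05%), 9 of 14 at 18 h (1.14%) and 8 of the 13 with a value at 24 h (1.06%). The median collagen difference was 0.18 at 6 h, 0.84 at 12 and 15 h, 1.25 at 18 h and 1.35 at 24 h, beside medians of -0.05, 0.03, 0.03, -0.04 and 0 over all probe sets analysed. Both Lox probe sets were at least 2-fold lower at 12, 15, 18 and 24 h, where 1.75%, 1.58%, 1.8% and 1.39% of probe sets were, and neither was at 6 h (1.1%). With 1 array per time these counts describe the arrays and have no test. All 5 comparisons share the 0 h array.

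By the median, the step from 6 to 12 h was the widest for the collagens. Exceptions included Col6a2, widest from 0 to 6 h (0.77), and Col5a1 101080_at, widest from 15 to 18 h (0.40). All 14 collagen probe sets were higher at 12 h than at 6 h, by a median of 0.60. Over all analysed probe sets the median was 0.08, so most of those were higher as well. By 0.5 or more, 10 of the 14 were higher, as were 4.41% of all probe sets. This step does not use the 0 h array. From 0 to 6 h 3 of the 14 gained 0.5 or more, both of Col1a1 and Col6a2 (background 6.11%). From 12 to 15 h 0 did (0.285%), from 15 to 18 h 1 did, Col3a1 102990_at (0.441%), and from 18 to 24 h 0 of 13 did (1.3%). The medians of those last steps were 0.08, 0.23 and 0.06, and the first 2 of them span 3 h, the others 6 h. Lox had its widest step first, -0.82 and -0.97 from 0 to 6 h, when 8.33% of probe sets lost 0.5 or more. From 6 to 12 h the Lox steps were -0.46 and -0.59 (background at 0.5 or more downward 2.3%). No member lost that much at a later step, where 0.674%, 2.27% and 0.416% of probe sets did. In the order of the arrays, 7 collagen probe sets of 6 genes increased at each step, those of Col1a1 (both), Col3a1 (102990_at), Col5a2 over its 5 arrays, Col6a1 95493_at, Col6a2 and Col6a3, and 0.504% of all analysed probe sets did so.

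Across all genes, 15 probe sets rose in the linear fit, and 7 of these 15 were collagen members. Because members were chosen with earlier results of these data known, this share is a description and not an independent result. At an unadjusted p under 0.05 the fit gave 12 of the 14 collagen probe sets an upward slope, beside 8.41% of all probe sets, and both Lox probe sets a downward one, beside 7.81%. The median slope was 1.57 over the 14 collagen probe sets and 0.0086 over all. The 5 progesterone arrays alone gave 7 collagen probe sets that rose where 1.02% of all probe sets did: both of Col1a1, Col1a2 101130_at, Col3a1 102990_at, Col5a2, Col6a2 and Col6a3, with slopes from 1.21 to 2.61, and no member fell (0.88%). The count of 7, which was 0 without any of the 4 arrays from 6 to 18 h, was 7 without 0 h and 9 without 24 h, where 8 collagen probe sets rose and Lox 160095_at fell by 1.93 per 24 h (adjusted p = 0.045). Quantile normalization left 3, Col1a1 94305_at, Col3a1 102990_at and Col6a3. Over all probe sets it left 10 of 7722, where the main fit called 24 of 7731. Without 0 h 147 of 7729 probe sets were called, without 6 h 1, and without 12 or 15 h 0.

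**Figure D3:**
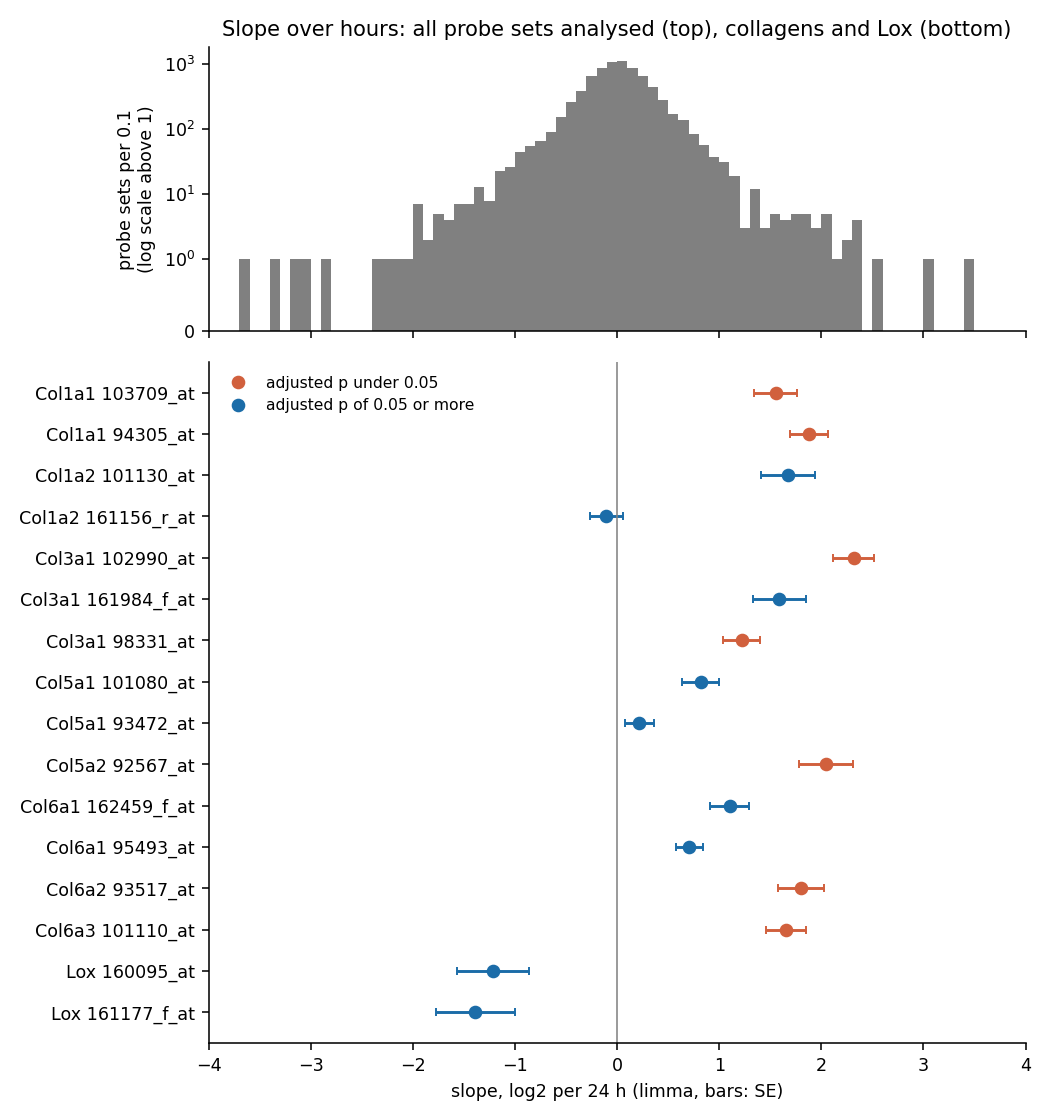
Top: number of probe sets per slope bin of 0.1 over all 7731 analysed (y axis, logarithmic above 1). Bottom: slope in log2 per 24 h (x axis) with its SE from limma for each collagen and Lox probe set, orange where the adjusted p was under 0.05. The 7 orange points lie between 1.22 and 2.32, in the thin right tail of the distribution, and the 2 Lox points at -1.22 and -1.39.

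Most probe sets of collagen genes resembled each other over the 6 arrays, and Lox was negatively correlated with them, though not step by step. The widest step of Lox came before the widest step of the collagen median. From 18 to 24 h Lox was higher by 0.26 and 0.19. Over the 6 arrays, the 91 pairs of collagen probe sets had a median Pearson r of 0.96, with a minimum of -0.54, and 0.75 once Col1a2 161156_r_at was left out. Between Lox and those other collagen probe sets r lay between -0.94 and -0.64. All pairs share the same 6 arrays and the same order of times, so these values are a description. Other genes were compared with the mean of 8 member genes, each by its brightest probe set. That mean includes Lox, which ran opposite to the collagens, and leaves out Col5a2 for its missing value. The search covered 403 other probe sets above the floor on all arrays and with a range of at least 1. The 10 most like that mean were those of Mfap2, Pfn2, Col4a2, Dmpk, Actc1, Bzw2, Sh3bgr, Aqp4, Egfl8 and Sparc, with r from 0.98 to 0.94 over 6 arrays. Set against Lox alone, a choice made after the values were seen, the 10 most alike were Smpdl3a, Abca1, F3, Igfbp3 on both of its probe sets, Ephx1, Pigr, Crip2, Ltf and Efnb2, with r from 0.996 to 0.978.

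Genes that fold, trim and secrete collagen mostly had upward slopes, smaller than the collagen median and in part near 0. Of 13 such genes on the array 12 were analysed and 11 had an upward slope, with a median of 0.31 per 24 h, beside 51.6% upward slopes and a median of 0.0086 over all probe sets. None of the 12 passed either limma fit, and 5 had an unadjusted p under 0.05 in the trend and 3 against 0 h, all upward. Over all probe sets 8.41% and 8.09% were upward at that p. Serpinh1, the chaperone of procollagen in the endoplasmic reticulum, was 0.41 above 0 h at 6 h and 1.10 above it at 12 h, with a slope of 1.02 ± 0.25 (adjusted p = 0.12). Colgalt1, which adds galactose to hydroxylysine, had a slope of 0.95 ± 0.20 (adjusted p = 0.087), and Crtap, part of the complex that 3-hydroxylates collagen prolines, 0.94 ± 0.18 (adjusted p = 0.083). Pcolce, an enhancer of the protease that removes the C-terminal propeptide, had a slope of 0.92 ± 0.20 (adjusted p = 0.092). Among the smallest upward slopes were those of Bmp1, P4ha2 and Mia3, at 0.004, 0.02 and 0.09. P4ha2 and P4ha1 did not have the timing of the collagens. Both were highest at 6 h, at 1.20 and 0.75 above 0 h, and stood at 0.27 and 0.43 at 18 h. Loxl1, a relative of Lox and the only other lysyl oxidase analysed, lay at -0.07 at 6 h and 0.45 at 24 h, with a slope of 0.51 ± 0.18 (adjusted p = 0.23), where both Lox probe sets were below 0 h at every time.

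Other collagens were represented by 21 genes on the array, of which 11 were analysed and the rest were above the floor on fewer than 2 arrays. Their median slope was 0.55, 10 of 11 were upward, and 0 passed either limma fit. At an unadjusted p under 0.05, 6 were upward in the trend and 4 against 0 h, beside 8.41% and 8.09% of all probe sets. Col15a1, a collagen of basement membrane zones, had a slope of 1.81 ± 0.39 (adjusted p = 0.10) with no value at 24 h. Col4a2 and Col4a1, chains of the basement membrane network, had slopes of 1.05 ± 0.21 and 0.89 ± 0.15 (adjusted p = 0.084 and 0.068). Col14a1, which binds the surface of fibrils, was at -0.31 at 6 h and 0.77 at 24 h.

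Proteins that bind or accompany fibrils did not share 1 direction. Of 16 analysed, 8 had an upward slope, and the median was -0.05. Mfap2, a protein of elastin-associated microfibrils, rose by 1.47 ± 0.20 per 24 h (adjusted p = 0.046). It passed without 0 h and in no other fit with an array left out (adjusted p up to 0.19). Sparc, a collagen-binding glycoprotein, Bgn, the proteoglycan biglycan, and Postn, periostin, had slopes of 1.39 ± 0.23, 1.02 ± 0.23 and 0.94 ± 0.20 (adjusted p = 0.067, 0.10 and 0.091). Each of these 3 was below 0 h at 6 h, by -0.20, -0.21 and -0.04. Fbln1, the matrix protein fibulin-1, fell against 0 h by 0.60 ± 0.11 on probe set 94309_g_at (adjusted p = 0.031). Its call was lost without 12, 15, 18 or 24 h (adjusted p up to 0.11), and its other probe sets gave -0.69, -0.27 and 0.16 without passing.

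Enzymes that break down matrix, and their inhibitors, gave a median slope of 0.02 over 9 analysed genes, and 0 passed either limma fit. At an unadjusted p under 0.05, 1 was downward in each fit, beside 7.81% of all probe sets in the trend and 10.9% against 0 h. Timp3, an inhibitor of metalloproteinases bound to matrix, had a slope of -0.72 ± 0.17 (adjusted p = 0.11), and Ctsk, the collagen-cleaving cathepsin K, 0.51 ± 0.24 (adjusted p = 0.34). Mmp2, Mmp7, Mmp8, Mmp10, Mmp11, Mmp13, Mmp16 and Fap were above the floor on fewer than 2 arrays. Among 4 collagen receptors analysed none passed (limma; 1 upward in the trend and 2 downward against 0 h at an unadjusted p under 0.05), with a slope of 0.77 ± 0.26 for Antxr2 and differences from 0 h of -0.55 ± 0.13 for Ddr1 and -0.47 ± 0.16 for Ddr2, receptor kinases for collagen. The shares over all probe sets at that p were 8.41% upward in the trend and 10.9% downward against 0 h.

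Signalling by TGF-beta, a growth factor known to induce collagen and Lox in fibroblasts, was represented by 13 analysed genes with a median slope of -0.08. Against 0 h 1 rose and 2 fell, where 0.893% and 1.8% of all probe sets did. Ccn2, connective tissue growth factor, fell by 1.16 ± 0.18 (adjusted p = 0.023), with differences between -0.99 at 6 h and -1.43 at 15 h. Tgfbi, a secreted protein named for its induction by TGF-beta, fell by 2.53 ± 0.50 (adjusted p = 0.042), and Tgfbr3, the co-receptor betaglycan, rose by 0.68 ± 0.12 (adjusted p = 0.035). With an array left out, Ccn2 passed without 6 or 15 h and Tgfbi and Tgfbr3 without 6 h, with adjusted p up to 0.097, 0.14 and 0.11 in the other fits. Tgfb1, Tgfb2 and Tgfbr2 were above the floor on fewer than 2 arrays, and Ltbp1, which holds latent TGF-beta in the matrix, had a slope of -0.93 ± 0.18 (adjusted p = 0.087).

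**Figure D4:**
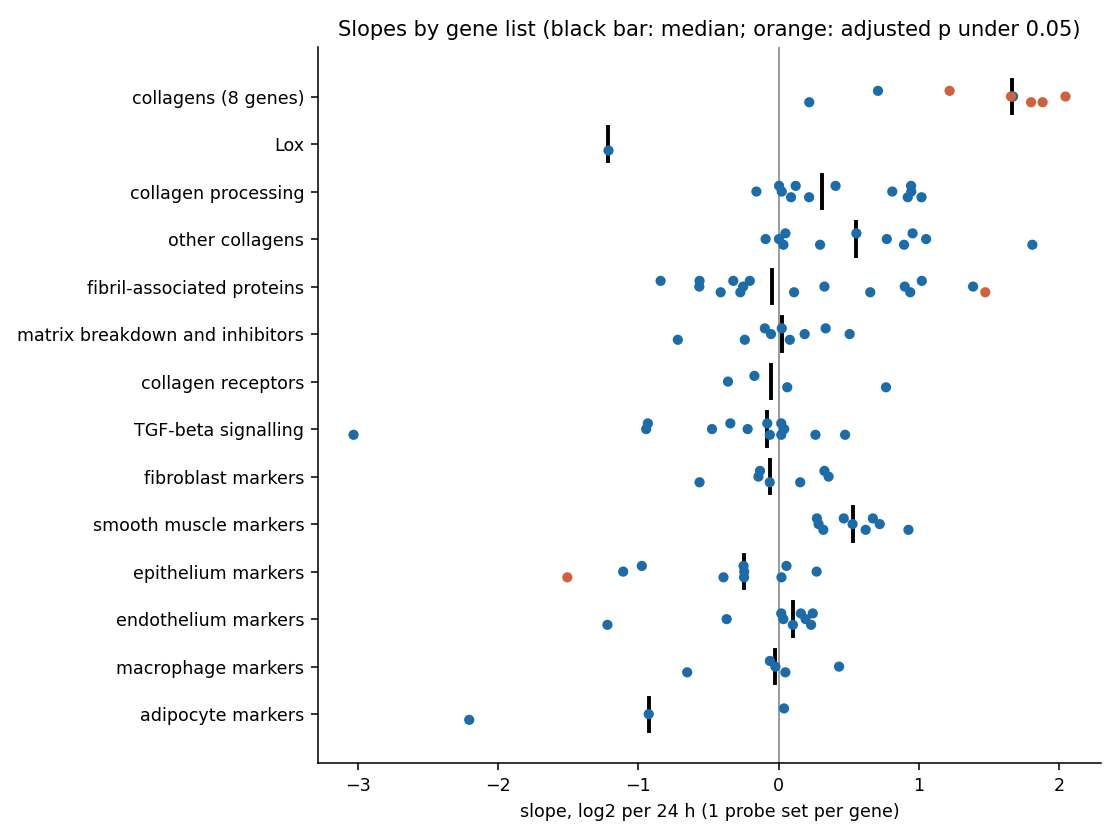
Slope in log2 per 24 h (x axis) of every analysed gene of the collagens, Lox and the other lists with at least 3 analysed genes (rows), 1 point per gene by its brightest probe set, black bars being medians and orange points genes with an adjusted p under 0.05 in the trend. The collagen row lies to the right of 0, Lox to the left, collagen processing genes, other collagens and smooth muscle markers mostly between 0 and 1, and the other lists plotted on both sides of 0.

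Markers of cell types moved beside these genes, and their part in the results was not tested. Smooth muscle markers had an upward slope in 9 of 9 genes (51.6% of all probe sets), with a median of 0.53. The slope of Actg2, 0.67 ± 0.41, rests on 0, 6 and 12 h, its only values. Of these markers 0 passed (limma), and 5 had an unadjusted p under 0.05 in the trend, upward as in 8.41% of all probe sets. Their summed level on the linear scale, over the 8 with all values, was 16843 at 0 h and between 16215 and 22898 on the progesterone arrays, with Cnn1, Des and Myh11 at 0.68, 0.71 and 0.39 above 0 h at 24 h. The fibroblast markers Pdgfra, Thy1, Dpt, Cd34, Tcf21, S100a4 and Fbln1 summed to 7355 at 0 h and to 5757 to 6911 afterwards, with a median slope of -0.06, and Vim and Pdgfrb were above the floor on fewer than 2 arrays. Pdgfra was 0.13 above 0 h at 24 h and had a slope of 0.15 ± 0.13. Epithelium markers summed to 10238 at 0 h and to 7636 to 9023 afterwards. Krt7 fell, with a slope of -1.51 ± 0.22 (adjusted p = 0.046), and Epcam and Krt18 fell against 0 h by 1.12 ± 0.14 and 1.03 ± 0.16 (adjusted p = 0.010 and 0.024). Epcam passed with each progesterone array left out, Krt18 only without 6 h (adjusted p up to 0.097 otherwise) and Krt7 only without 24 h (up to 0.19). The other epithelium markers did not pass either fit and were not all on that side: the list's median slope was -0.25, 3 of 10 slopes were upward, and Cldn3 was above 0 h at all 5 times, by 0.26 to 0.56. Summed endothelium markers went from 4752 to between 3618 and 4107, with Pecam1 above the floor on fewer than 2 arrays. Of that list Cldn5 fell by 1.29 ± 0.16 (adjusted p = 0.010, but 0.057 without 12 h), while 7 of 9 slopes were upward, with a median of 0.10, and Tie1, Flt1, Tek, Kdr, Cdh5, Emcn and Eng were 0.01 to 0.17 above 0 h at 24 h. Macrophage markers summed to 2461 and to 2116 to 2584, without Adgre1 and Fcgr1, mesothelium markers to 520.1 and to 352.9 to 501.3, without Msln and Krt14. The 3 analysed adipocyte markers, without Fabp4, Cidec and Pparg, summed to 1491 and then to between 685.0 and 1044. Fbln1 and Dpt stand both among fibroblast markers and among fibril-associated proteins.

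**Figure D5:**
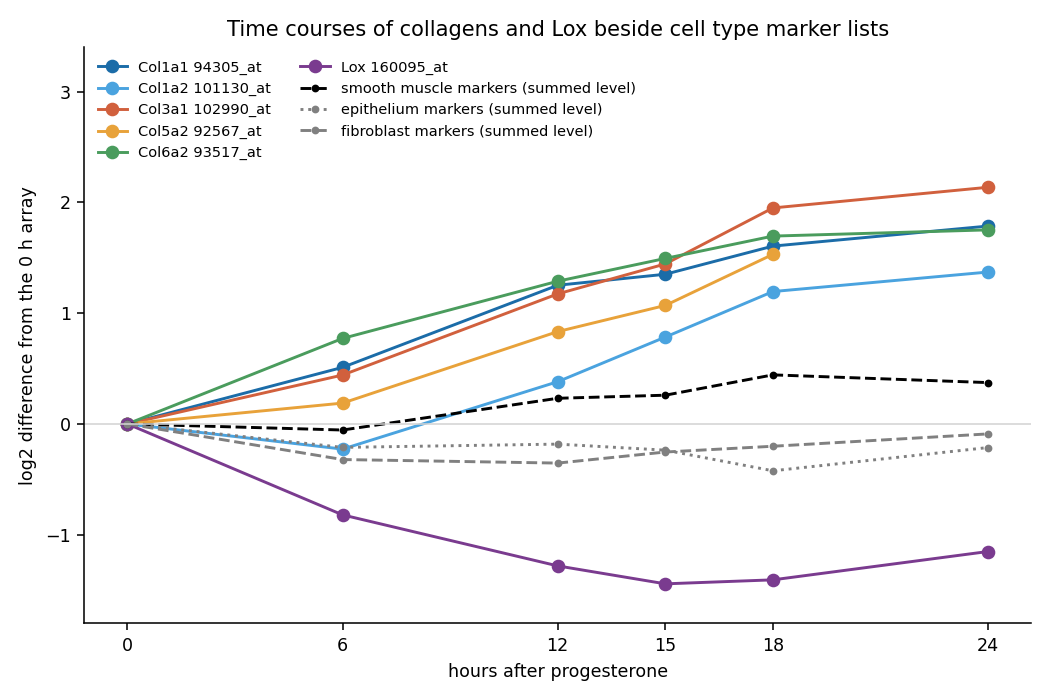
Log2 difference from the 0 h array (y axis, deposited values) against hours after progesterone (x axis) for 5 collagen probe sets and Lox, with the log2 ratio of the summed linear level of 3 marker lists to 0 h. Col3a1 102990_at reaches 2.14 and Lox 160095_at -1.15 at 24 h. The summed smooth muscle, epithelium and fibroblast markers are then at 0.37, -0.21 and -0.09. The 5 drawn do not stand for all 14 collagen probe sets. At 24 h Col1a2 161156_r_at was at -0.06, Col5a1 at 0.23 and 0.71, and Col6a1 at 0.63 and 0.95. With floored values the median of the 13 with a 24 h value was 1.35, and 12 were above 0. The gap between single probe sets and summed lists was not tested.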

How the data were processed

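RNA of whole uterus was hybridized to 6 Affymetrix arrays, 1 per time, with labelling and hybridization by the maker's recommendations per the labels. Deposited values were on the log2 scale, 1 for each probe set and array, with software, background correction and normalization not given in the sources used here. The table held 12487 probe sets, 65 of them controls, which were left out, and 121 missing values stayed missing. Values below the 40th percentile (6.60, linear 96.9) were raised to it, which turns differences from such values into limits. The 7731 probe sets above this floor on at least 2 arrays were analysed. Groups came from sample titles and gene names from the platform annotation.

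limma 3.58.1 in R 4.3.3 (lmFit, eBayes with an intensity trend) fitted hours as a number, with slopes given per 24 h, and in a second fit the 5 progesterone arrays against 0 h, with Benjamini-Hochberg adjustment over all probe sets. A probe set is said to have risen or fallen where either fit gave an adjusted p under 0.05. The spread is that around the line or between times, and the lone 0 h array is assumed to vary like the others. Both fits were tested on simulated data. The number of arrays limits the precision. Alternatives were other floors, none, no filter, quantile or trimmed-mean scaling, eBayes without the trend, and each array left out.

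Named were all member probe sets, and from each other list the genes that passed a fit and the up to 4 steepest by slope, with 1 probe set per gene, the brightest; genes of like pattern were the 10 with the highest r. Some list genes outside this rule were also named with their values known, among them Bmp1, P4ha1, P4ha2, Mia3 and Cldn3. Members and lists were chosen with earlier results of these data known.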

Additional observations from a re-analysis of the deposited data

How the results depend on the processing

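No setting turned the direction of any slope or difference from 0 h of the 16 probe sets or of the list genes that passed a fit. The count of 7 probe sets called in the trend became 3 with quantile normalization and 0 with no filter on expression, and ranged from 0 to 9 with an array left out. It was 5 to 9 with the other floors, trimmed-mean scaling or no intensity trend. Trend calls over all probe sets changed as well, from 24 in the main fit to 10 with quantile normalization and 0 with no filter. The count of 2 called against 0 h became 1 with the floor at the 20th percentile, 0 with that at the 60th percentile, which left 13 of the 16 to test and neither of Lox, and 0 with no filter (limma; 7 and 6 at an unadjusted p under 0.05 in these last fits), and ranged from 0 to 9 with a progesterone array left out. With 6 h left out, collagen probe sets as well as both of Lox passed against 0 h. Calls over all probe sets were then also more numerous than in the main fit, so this increase was not particular to the members. Counts of probe sets at least 2-fold higher at each time stayed within 1.5 times the main ones, and leaving out an array cannot change a difference between 2 others. The cause of these changes was not tested. No paired analysis was possible because each time has 1 array. The floor bounds the differences of Col3a1 161984_f_at and Lox 161177_f_at.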
